A study of Arabidopsis thaliana with 4 samples.

Results

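The nuclear ribosomal RNA rows of the count tables are the 4 gene rows that the annotation gives as 18S or 5.8S ribosomal RNA, out of 36632 gene rows in all. They are AT2G01010 (18S) and AT2G01020 (5.8S) on chromosome 2, and AT3G41768 (18S) and AT3G41979 (5.8S) on chromosome 3. The rows were chosen by that annotation and by their share of the gene counts, which was already known to differ between *jmj26* and Col-0, so that share is given as a description and was not tested. The 4 libraries are RNA-seq of whole *Arabidopsis thaliana* rosettes, harvested at the nine-leaf stage from plants grown on soil in long days. They comprise 2 libraries of *jmj26*, 1 T-DNA insertion line in the histone demethylase candidate gene *JMJ26*, and 2 libraries of Col-0, the wild type. RNA of both genotypes was selected for poly(A) before library preparation with a strand-preserving kit.

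Nuclear ribosomal RNA genes are repeated units that RNA polymerase I transcribes into 1 precursor, which is cut into 18S rRNA of the small ribosomal subunit and 5.8S and a longer rRNA of the large subunit. In *Arabidopsis* the units lie in long arrays, the nucleolus organizer regions at the ends of chromosomes 2 and 4, and the reference assembly holds few of them. Mature rRNAs make up most of the RNA of a cell but carry no poly(A) tail, so poly(A) selection is meant to remove them. Short tails can be added to rRNA that is marked for decay by the nuclear exosome. Reads of rRNA left in a poly(A) library thus measure carry-over and decay products as well as the amount of rRNA, and these cannot be told apart in these libraries.

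In the annotation of TAIR10.1, AT2G01010 lies on chromosome 2 from 3706 to 5513 and AT3G41768 on chromosome 3 from 14197677 to 14199484, each 1808 bases long and on the plus strand. AT2G01020 lies on chromosome 2 from 5782 to 5945 and AT3G41979 on chromosome 3 from 14199753 to 14199916, each 164 bases long and on the plus strand. The gene entry of AT2G01020 is noted as 5.8S rRNA, whereas the product of its transcript reads 5S. The 5.8S sequence of both rows is shown because the copies are identical, so that no read inside it can be assigned to 1 of them.
5.8S of AT2G01020 and AT3G41979: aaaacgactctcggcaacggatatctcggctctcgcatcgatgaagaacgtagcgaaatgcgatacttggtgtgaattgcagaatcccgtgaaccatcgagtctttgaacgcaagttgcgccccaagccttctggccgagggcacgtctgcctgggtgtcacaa

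The 18S copies differ at 2 of 1808 bases, T489C and T1327C, where the first base is that of the chromosome 2 copy, the second that of the chromosome 3 copy, and positions are counted from 1 at the 5′ end of the 18S row. The 41 bases around each position are shown because they are the only part of 18S that tells the copies apart, with the differing base in capitals.
AT2G01010, position 489: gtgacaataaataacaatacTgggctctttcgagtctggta
AT3G41768, position 489: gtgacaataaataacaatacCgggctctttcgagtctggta
AT2G01010, position 1327: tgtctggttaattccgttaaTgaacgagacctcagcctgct
AT3G41768, position 1327: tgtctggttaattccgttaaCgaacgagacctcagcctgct

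The 4 stretches come from RefSeq assembly TAIR10.1, where they lie on the plus strand at chr2:4174-4214, chr3:14198145-14198185, chr2:5012-5052 and chr3:14198983-14199023. Outside the mature RNAs the units remain close, with 3 differences over the 268 bases between 18S and 5.8S and 12 over the 3000 bases that follow 5.8S. Every 50-base window of the genome was compared with those of the rows, on both strands. Of the 1759 windows of 18S, 1659 (94.3%) occurred in 2 places, the copies themselves, and 100 (5.69%) occurred once. The number found once was the same, 100, for AT2G01010 and for AT3G41768, and with 100-base windows it was 200 of 1709 (11.7%) for both. All 115 windows of 50 bases in each 5.8S row occurred in 2 places. The read length is not given in the sources used here. The longest run of A in either 18S copy was 5 bases, and 99.7% of 65898 windows of 1808 bases over chromosomes 1 to 5 held a run of at least that length on either strand.

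**Figure D1:**
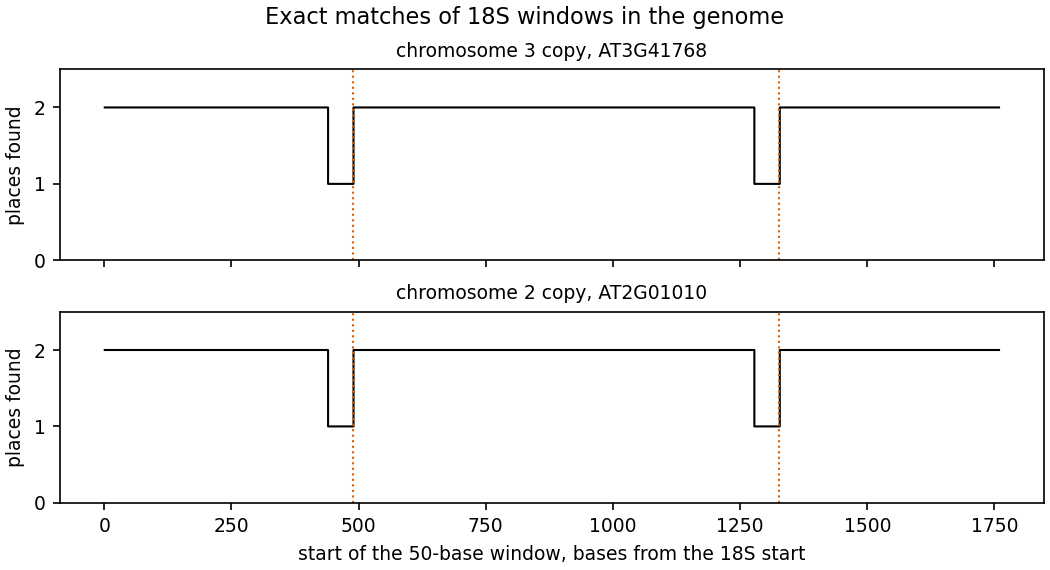
Number of places in the genome, on either strand, at which each 50-base window of the 18S copies occurs, by the start of the window in bases from the 18S start, for the chromosome 3 copy (top) and the chromosome 2 copy (bottom). Dotted lines mark positions 489 and 1327, and the only windows found once are the 100 in each copy that cover one of them.

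Gene counts, the sum over all gene rows, were 1655014 and 1229875 in *jmj26* replicates 1 and 2 and 843871 and 580064 in Col-0 replicates 1 and 2. Of all gene rows, 24.9% share their interval with a gene on the other strand, and these rows held 92.4% to 92.5% of the gene counts in *jmj26* and 94.5% to 95.7% in Col-0, and the strand setting of the counting is not given. In replicate 1, long noncoding RNA rows held 726287 counts in *jmj26* and 382434 in Col-0, beside 893509 and 443495 on protein-coding rows. Whether the counts on the rRNA rows are reads of rRNA or of its opposite strand was not tested. The same holds for every other row named here, so counts on a row may not measure expression of its gene. *JMJ26* (AT1G11950) had 0 and 2 counts in *jmj26* and 1 and 0 in Col-0, too few to check the genotype labels on it. The 5 leaf marker rows had counts in every library, whereas the 4 flower markers reached at most 2 counts and the 4 root markers at most 3. The file of *jmj26* replicate 2 carries another leading number in its name than the other 3, which the labels do not explain.

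The 4 rRNA rows held more of the gene counts in both *jmj26* libraries than in either Col-0 library, and almost all of these counts stood on 1 row, AT3G41768. Together the rows held 6149 counts, or 0.372% of the gene counts (95% Wilson interval 0.362 to 0.381), in *jmj26* replicate 1, and 8406 counts, or 0.683% (0.669 to 0.698), in *jmj26* replicate 2. In Col-0 they held 823 counts, or 0.0975% (0.0911 to 0.104), in replicate 1 and 1384 counts, or 0.239% (0.226 to 0.251), in replicate 2. These intervals cover counting error only, and they lie far inside the spread between libraries of the same genotype.

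The mean share was 0.528% ± 0.221 in *jmj26* and 0.168% ± 0.0997 in Col-0 (SD, n = 2 each), a difference of 0.359 percentage points and a ratio of 3.14. The libraries of the same genotype differed by 1.84-fold in *jmj26* and by 2.45-fold in Col-0, and the lower *jmj26* share was 1.56 times the higher Col-0 share. The genotypes did not overlap, but the gap between them was narrower than the gap between replicates. Of the 5232 gene rows with enough counts to be tested, 26.7% had both *jmj26* libraries above both Col-0 libraries in CPM, the counts per 1000000 gene counts. As a share of gene and transposon counts together, the rows held 0.308% and 0.561% in *jmj26* and 0.0805% and 0.187% in Col-0. Rosettes were harvested individually, but the sources used here do not say which plants went into which library, so p-values measure only the spread between these libraries.

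**Figure D2:**
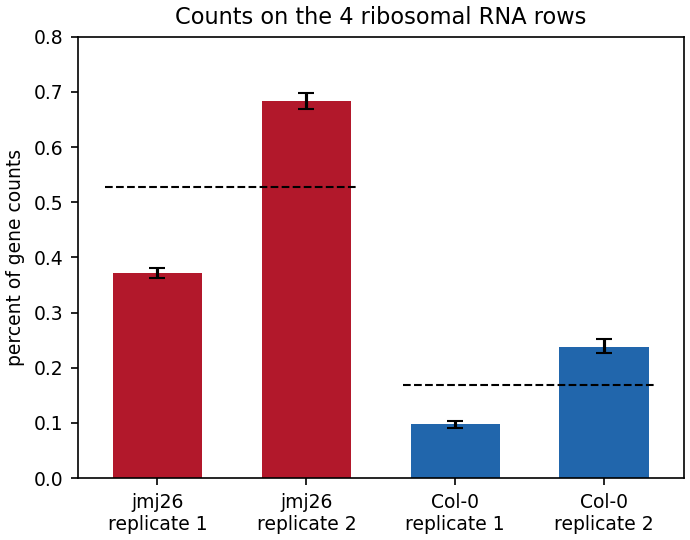
Percent of the gene counts that fall on the 4 ribosomal RNA rows, for each library of *jmj26* and Col-0. Bars are single libraries, error bars their 95% Wilson intervals from counting alone, and dashed lines the genotype means of 0.528% and 0.168%, and the *jmj26* bars stand above the Col-0 bars with a wide spread within each genotype.

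AT3G41768, the 18S row of chromosome 3, took 16599 of the 16762 counts that the 4 rows had over all libraries. It had 6137 and 8298 counts in *jmj26* replicates 1 and 2, against 800 and 1364 in Col-0 replicates 1 and 2. In CPM these were 3708 and 6747 in *jmj26*, against 948 and 2351 in Col-0. Both *jmj26* values were above both Col-0 values, with the highest in *jmj26* replicate 2 and the lowest in Col-0 replicate 1. Among the gene rows of a library it ranked 24 and 16 by counts in *jmj26* and 110 and 40 in Col-0. Its mean was 5228 ± 2149 CPM in *jmj26* and 1650 ± 992 CPM in Col-0 (SD, n = 2 each), and its log2 fold change in the fit of all rows was 1.67 (standard error 0.42).

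AT2G01010, the 18S row of chromosome 2, had 12 and 108 counts in *jmj26* and 23 and 16 in Col-0. These were 7.25 and 87.8 CPM in *jmj26* and 27.3 and 27.6 CPM in Col-0. The *jmj26* libraries stood on either side of the Col-0 libraries, so the genotypes overlapped. The fitted log2 fold change of 0.73 (standard error 0.95) rested on *jmj26* replicate 2, and without that library it was -1.97.

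The 5.8S rows were close to empty. AT3G41979 had 0 counts in every library, and AT2G01020 had 0 and 0 counts in *jmj26* and 0 and 4 in Col-0. Taking 3 counts as the smallest number detectable, 0 counts allow the 5.8S rows a share of up to 0.000181% and 0.000244% of the gene counts in *jmj26* and 0.000356% in Col-0 replicate 1. The 4 counts of Col-0 replicate 2 were 6.90 CPM. Per length, 5.8S had 0 and 0 counts for each count of 18S in *jmj26* and 0 and 0.0320 in Col-0. With 3 of the 4 values at 0, and the 18S counts known when the rows were chosen, this ratio is given without its test. Although 1 precursor yields 1 copy of each RNA, the counts on these rows thus differed by more than the difference in length. What part the assignment of reads that match several places or rows had in this was not tested. AT3G41979 lies inside AT3G06355, a long noncoding RNA row on the same strand, and that row also had at most 3 counts in any library. Neither 5.8S row passed the filter on low values, whereas both 18S rows did.

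The division of the 18S counts between the copies was far from even. The chromosome 2 row held 0.195% and 1.28% of the 18S counts in *jmj26*, against 2.79% and 1.16% in Col-0. The *jmj26* values included the lowest, and Col-0 replicate 1 gave the highest, with the other 2 libraries between them. The means were 0.740% ± 0.770 in *jmj26* and 1.98% ± 1.16 in Col-0 (SD, n = 2 each). This share has AT3G41768 in its denominator, so it is given as a description, without its test. Over the 4 libraries the counts were 159 for AT2G01010 and 16599 for AT3G41768, rows with the same number of windows found once. How reads that match both copies were assigned is not given in the sources used here, and its part in this division was not tested.

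The windows that run 10 kb to either side of the members hold 15 other gene rows, and 12 of them had at most 6 counts in any library. Rows of the chromosome 2 unit were nearly empty. AT2G03875, a noncoding RNA row downstream of the chromosome 2 5.8S, had 3 and 0 counts in *jmj26* and 1 and 2 in Col-0. The pseudogene AT2G01022 had 9 and 0 counts in *jmj26* and 2 and 12 in Col-0. The 2 rows with many counts lie in the chromosome 3 unit, on either side of the mature RNAs.

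AT3G06365, a noncoding RNA row on chromosome 3 from 14200215 to 14204208, starts 298 bases after the 5.8S row on the same strand, where the large-subunit rRNA of the unit would lie, although the annotation gives it no product. It had 1059 and 773 counts in *jmj26*, or 640 and 629 CPM, and 356 and 1243 counts in Col-0, or 422 and 2143 CPM. The *jmj26* libraries lay between the Col-0 libraries, and Col-0 replicate 2 was the highest (exact permutation test, two-sided, p = 1, n = 2 each). With 2 against 2 libraries this test cannot go below 0.333. AT3G41762, a protein-coding row on the minus strand of chromosome 3 from 14195447 to 14196865, ends 811 bases before the 18S row. Unlike AT3G41768 and AT3G06365, AT3G41762 has a gene on the opposite strand, and which gene its counts belong to was not tested. It had 278 and 228 CPM in *jmj26* and 271 and 1088 CPM in Col-0, again with Col-0 replicate 2 as the highest and the other 3 libraries close together (exact permutation test, two-sided, p = 0.667, n = 2 each).

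The order of the libraries differed between the 18S row and the rows beside it. Counts per length on AT3G41768 were 12.8 and 23.7 times those on AT3G06365 in *jmj26*, against 4.96 and 2.42 times in Col-0. Set against AT3G41762 they were 10.5 and 23.3 times in *jmj26*, against 2.74 and 1.70 times in Col-0. Both ratios were higher in both *jmj26* libraries, and their means differed by 14.6 each. These differences moved with single libraries, since without *jmj26* replicate 2 they were 9.11 and 8.25, and without *jmj26* replicate 1 they were 20.02 and 21.04. They contain the row that was chosen for its difference and were formed after the values were seen, so they were not tested. The ratio of the outer rows, AT3G41762 to AT3G06365 per length, contains no 18S row, with 1.22 and 1.02 in *jmj26* and 1.81 and 1.43 in Col-0 (exact permutation test, two-sided, p = 0.333, the smallest it can give, adjusted p = 0.857 over 9 comparisons, n = 2 each). Of the 50-base windows of these rows, 11.0% of those of AT3G06365 and 24.5% of those of AT3G41762 occur once in the genome, so their counts too may depend on how reads with several hits were assigned.

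**Figure D3:**
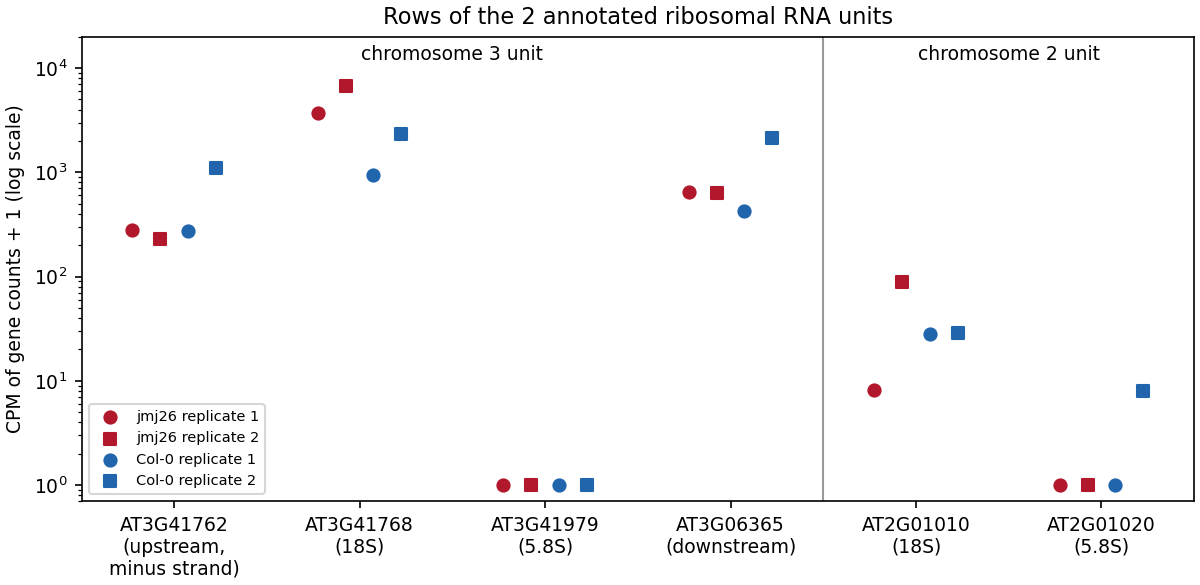
CPM of gene counts, plus 1 and on a log scale, for rows of the chromosome 3 and chromosome 2 units in each library of *jmj26* and Col-0. Points are single libraries, and Col-0 replicate 2 is highest for AT3G41762 (1088 CPM) and AT3G06365 (2143 CPM) whereas *jmj26* replicate 2 is highest for AT3G41768 (6747 CPM).

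Other small RNAs that mostly carry no poly(A) tail were examined as classes, a comparison added after the rRNA values were known. The 625 tRNA rows held 0.00943% and 0.0115% of the gene counts in *jmj26* and 0.0117% and 0.0119% in Col-0 (exact permutation test, two-sided, p = 0.333, adjusted p = 0.857, n = 2 each), so the class did not share the higher values of 18S. The 82 rows of small nuclear RNAs, which serve in splicing, held 0.0300% and 0.0343% in *jmj26* and 0.0393% and 0.0312% in Col-0 (exact permutation test, two-sided, p = 0.667, n = 2 each). The 287 rows of small nucleolar RNAs, which guide modification of rRNA, held 0.00689% and 0.00626% in *jmj26* and 0.00723% and 0.00655% in Col-0 (exact permutation test, two-sided, p = 0.667, n = 2 each). The mean of the tRNA class was 0.0104% in *jmj26* and 0.0118% in Col-0, with libraries of the genotypes that overlapped for the nuclear and nucleolar classes. Few rows carry these classes, with 10 counts in every library in 1 tRNA row, 5 small nuclear RNA rows and 1 small nucleolar RNA row.

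The spread of AT3G41768 between libraries of the same genotype was wide beside tested rows of its level, most of which have a gene on the opposite strand. On the scale of log2(CPM + 1), its libraries differed by 0.86 in *jmj26* and by 1.31 in Col-0, against medians of 0.25 and 0.29 over the 5232 rows tested. Over the 104 tested rows with a mean of at least 1000 CPM the medians were 0.17 and 0.15. Over the 1343 tested rows with no gene on the opposite strand, as for AT3G41768, they were 0.33 in *jmj26* and 0.63 in Col-0. Over the 42 such rows annotated as ribosomal proteins they were 0.50 and 1.53. Many of those rows could pass the filter through the *jmj26* libraries alone, so these medians describe only rows that passed. A larger gap was found for 5.83% of all 5232 rows tested in *jmj26* and for 8.83% in Col-0. AT2G01010 had a gap of 3.43 in *jmj26*, which 0.153% of the 5232 rows exceeded, and of 0.017 in Col-0.

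Among all rows tested, 8.33% had a log2 fold change above the 1.67 of AT3G41768, and the median was 0.013. AT3G41768 has no gene on the opposite strand, and over the 1343 such rows tested the median was 0.61, against -0.03 over the 3889 rows with one. Rows could pass the filter on low values through the deeper *jmj26* libraries alone, so these medians and shares are descriptions of the rows that passed. Of these 1343 rows 27.0% had a larger fold change than AT3G41768, and 51.5% had both *jmj26* libraries above both Col-0 libraries. The leaf marker rows encode abundant photosynthetic proteins, and 5 of 5 were counted in every library. Their sum was also higher in both *jmj26* libraries than in either Col-0 library. Their summed level was 1107 and 1014 CPM in *jmj26* and 250.04 and 567 CPM in Col-0 (exact permutation test, two-sided, p = 0.333, the smallest it can give, adjusted p = 0.857, n = 2 each). What part these shifts had in the 18S values was not tested. Among the 104 tested rows with a mean of at least 1000 CPM, 9 had both *jmj26* libraries above both Col-0 libraries, and only 2 of the 104, AT3G41768 among them, have no gene on the opposite strand.

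**Figure D4:**
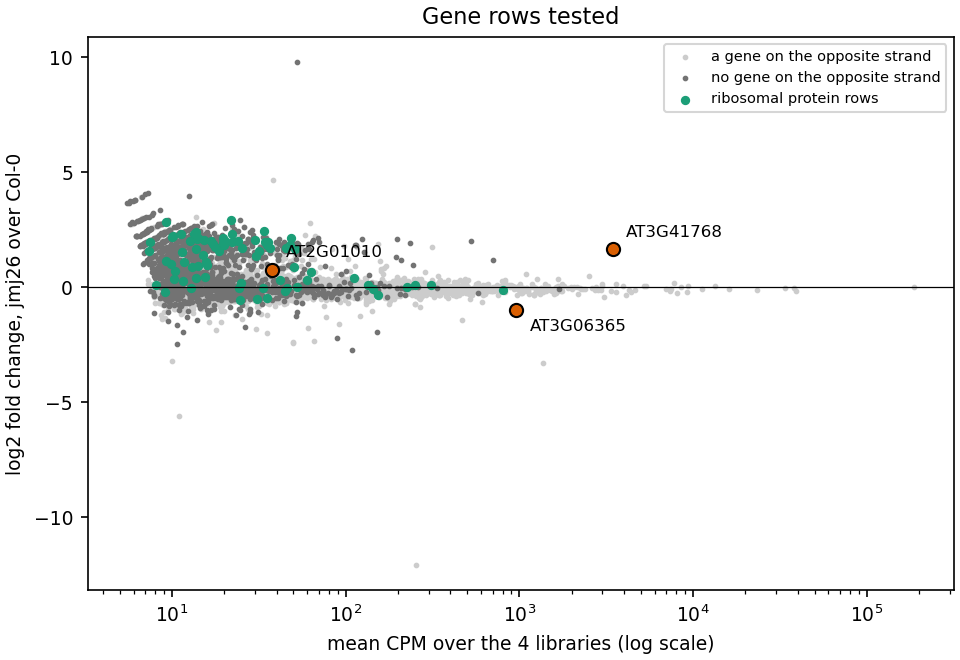
Log2 fold change of *jmj26* over Col-0 against the mean CPM on a log scale for the 5232 gene rows tested. Points are gene rows, coloured by whether a gene lies on the opposite strand, with ribosomal protein rows in green and 3 rows of the ribosomal RNA units outlined, and AT3G41768 stands at 1.67 among rows of its level that mostly lie near 0.

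By root mean square difference over the 4 libraries, on centred log2(CPM + 1), the rows most like the sum of the rRNA rows among 1779 rows with a mean of at least 50 CPM were AT1G70600, *PSAD-1*, *PRXR1*, *PSAF* and *PTAC16*. The closest, AT1G70600, which encodes a ribosomal protein of the large subunit, differed by 0.20 and had 68.3 and 86.2 CPM in *jmj26* and 13.0 and 37.9 CPM in Col-0. *PSAF* (AT1G31330), a subunit of photosystem I, differed by 0.27 and had 682 and 998 CPM in *jmj26* and 104 and 326 CPM in Col-0. None of the 5 has a gene on the opposite strand, and 4 libraries give many rows a similar pattern.

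Nuclear rows whose annotation text holds the words ribosomal protein were followed next, as a list that may include proteins of organelle ribosomes. Of its 318 rows 76 were tested, and 0 of these had an adjusted p below 0.05 in edgeR's quasi-likelihood test, against 3 of 5232 (0.0573%) over all rows. DESeq2's Wald test also called 0 of them. At an unadjusted p below 0.05, 43 of the 76 were higher in *jmj26* and 0 lower in edgeR, where 13.6% of all rows were higher at that p, and 26 passed in DESeq2, against 327 of all 5232 rows. Many of these rows could pass the filter through the *jmj26* libraries alone, so the count and the median log2 fold change of 1.48 describe only the rows that passed. Of the 23 rows of the list with at least 10 counts in every library, 4 were below that p in edgeR, against 215 of 3365 rows in all, and the median was 0.08. Without Col-0 replicate 2 the median over the 116 list rows then tested was 1.81, and without Col-0 replicate 1 it was 0.70 over 117. By opposite strand, the median was 1.97 over the 42 list rows tested with no gene there and 0.25 over the 34 with one, again of rows that passed. The 3 rows with the most counts lay near 0, and among them AT5G63300 and AT4G01790 have a gene on the opposite strand. AT5G63300 had 814 and 731 CPM in *jmj26* and 770.3 and 914 CPM in Col-0, with a log2 fold change of -0.12 (standard error 0.14). *RPS15A* (AT1G07770), of the small subunit, had 338 and 298 CPM in *jmj26* and 297 and 299.97 CPM in Col-0, with a log2 fold change of 0.09 (standard error 0.14). AT4G01790 had 273 and 240 CPM in *jmj26* and 213 and 271 CPM in Col-0.

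A second list held 25 rows for the synthesis, processing, decay and silencing of rRNA, of which 9 were tested. In edgeR's quasi-likelihood test and in DESeq2's Wald test 0 of the 9 had an adjusted p below 0.05. At an unadjusted p below 0.05, 4 were higher in *jmj26* and 0 lower in edgeR, and 2 passed in DESeq2, beside the shares over all rows given above. Of these 4 rows in edgeR, 3 had at most 10 counts in each Col-0 library. Of the 4 list rows with at least 10 counts in every library, 1 was below that p. Without Col-0 replicate 2 the median log2 fold change over the 11 list rows then tested was 0.68, beside 0.60 over the 9 rows with all libraries. *NRPA2* (AT1G29940), the second largest subunit of RNA polymerase I, has a gene on the opposite strand, and which gene its counts belong to was not tested. The row had 1209 and 1409 CPM in *jmj26* and 761 and 974 CPM in Col-0. Its *jmj26* libraries were both above its Col-0 libraries, and the fitted log2 fold change was 0.60 with a standard error of 0.16, which did not pass after adjustment (edgeR, adjusted p = 0.126). AT2G40430, annotated as a Nop53 protein, a ribosome assembly factor in yeast, had 69.5 and 69.1 CPM in *jmj26* and 66.4 and 63.8 CPM in Col-0. *HEN2* (AT2G06990), an RNA helicase of the nuclear exosome, had 35.6 and 36.6 CPM in *jmj26* and 35.6 and 25.9 CPM in Col-0, with a log2 fold change of 0.20 (standard error 0.27). AT2G40430 and *HEN2* have a gene on the opposite strand too.

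The nucleolin gene *NUC-L1* (AT1G48920), which acts in rRNA transcription and processing and was singled out after its values were seen, had 68 and 58 counts in *jmj26* and 3 and 7 in Col-0. *NUC-L1* also has a gene on the opposite strand. It passed the filter through its *jmj26* counts, so no fold change or test is given for it. The 16 rows of the list that were not tested included *NRPA1*, *FIB2*, *XRN2*, *HDA6* and *FAS1*, with at most 19 counts in any library. *NRPA1* (AT3G57660), the largest subunit of RNA polymerase I, had 19 and 6 counts in *jmj26* and 1 and 4 in Col-0. *HDA6* (AT5G63110), a histone deacetylase that silences rRNA genes, had 2 and 1 counts in *jmj26* and 1 and 0 in Col-0, so a difference was not detectable at this depth.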

How the data were processed

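The authors trimmed reads with FASTP and aligned them to Araport11 with STAR v2.7. For transposon expression they kept reads with many hits and counted with TEcount, as for the counts used here. Their own gene tests rested instead on default STAR settings and on counts from featureCounts. The deposited values are unnormalized read counts per gene row and transposon copy. Whether counting used strand is not given in the sources used here. All 36632 gene rows were found in the TAIR10.1 annotation and none is of the plastid or mitochondrion, so organelle shares were not analysed here.

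The ribosomal RNA rows and all lists were chosen with earlier results of these data known. Named were the members, rows within 10 kb, the 3 rows of each list with the most counts and the 5 rows most like the members. The ribosomal protein list was taken by text in the annotation and may hold organelle proteins. Gene rows were tested in edgeR 4.0.16 (R 4.3.3) with filterByExpr, TMM and glmQLFTest (legacy = TRUE) at FDR 0.05, over 5232 rows. Standard errors are the log2 fold change over the square root of F. DESeq2 1.42.0, scipy 1.17.1 and matplotlib 3.10.9 were also used. The fit was also run on counts simulated with the same dispersion for every row, which does not vouch for its behaviour on these rows. Wilson intervals have a level of 95%. A floor of 3 counts was 1.81 to 5.17 CPM. Alternatives were other denominators, scaling, filters, DESeq2, each library left out and a replicate block. Of 9 comparisons by exact permutation, over which p-values were adjusted, the 2 planned ones whose denominators hold AT3G41768 are given without their tests.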

Additional observations from a re-analysis of the deposited data

How the results depend on the processing

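The difference in share of the 4 rRNA rows, 0.359 percentage points in favour of *jmj26*, kept its direction under all denominators and scalings tried, and lay from 0.203 to 0.515 when each library was left out. For the 18S rows the range was 0.204 to 0.516. The log2 fold change of AT3G41768 lay from 1.05 to 2.37 without 1 library, lowest without Col-0 replicate 1. The 5.8S difference of -0.000345 percentage points lay from -0.000690 to 0 and the 5.8S to 18S ratio difference from -0.0320 to 0, both at 0 without Col-0 replicate 2, and the chromosome 2 share of 18S from -2.05 to -0.42 percentage points. The log2 fold change of AT2G01010 was -1.97 without *jmj26* replicate 2, with a range of -1.97 to 1.64 over the libraries left out, and that of AT3G06365 was 0.48 without Col-0 replicate 2, with a range of -1.87 to 0.48.

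Gene rows called numbered 3, with 592 without a filter on low counts, 0 with at least 10 counts in every library (215 at an unadjusted p below 0.05) in edgeR's test, 13 with DESeq2's Wald test, and 1 to 445 without 1 library, 445 without Col-0 replicate 2. Ribosomal protein rows called numbered 0, with 39 without a filter and 0 to 35 without 1 library, 35 without Col-0 replicate 2. Rows for rRNA synthesis and processing numbered 0 of 9, with 3 of 25 without a filter. Without a filter, 592 of 22317 gene rows (2.65%) and 39 of 285 ribosomal protein rows (13.7%) were called. The fit without Col-0 replicate 2 tested 6692 gene rows, of which 116 were ribosomal protein rows, against 5232 and 76 with all libraries. With the replicate number as a block, the counts were 64 of 5232 gene rows (1.22%), 3 of 76 and 1 of 9. What a replicate number stands for is not given in the labels, and the deviations of libraries with the same number correlated at -0.16 across rows, which are not independent replicates. With crossed numbers as a block, chosen after seeing the data, the counts were 152 of 5232 (2.91%), 14 of 76 and 1 of 9. The cause of these changes was not tested. Shares of plastid and mitochondrial rows and the nuclear denominator were not run, because no gene row is of either organelle. The chromosome 2 share of the few 5.8S counts was not run, because only Col-0 replicate 2 had any. With 2 libraries per genotype, differences within the spread of replicates cannot be resolved.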
